A study of Homo sapiens with 4 samples.

Results

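The ATP-binding cassette (ABC) transporter genes other than ABCB1 and ABCB4 were described in anaplastic thyroid cancer (ATC) cells before and after selection with paclitaxel. The members were all gene names made of ABC, a letter from A to G and a number, with ABCB1 and its neighbour ABCB4 on chromosome 7 left out. The rule found 44 members among 26485 gene names. SW1736 and 8505C are established human ATC cell lines, and for each the parental cells (wt) and a paclitaxel-resistant derivative (PTX) were sequenced. SW1736-PTX and 8505C-PTX cells had been exposed to paclitaxel for 6 months, at concentrations between 1 nM at the start and 1.5 µM at the end, with 1.5 µM also present in later culture, while SW1736 wt and 8505C wt cells received no paclitaxel. Each of the 4 conditions was represented by 1 RNA library, and each PTX line came from 1 course of selection, so that no difference within a line had a replicate check. A fit of line and treatment over the 4 libraries would leave 1 residual degree of freedom and was not run, since the lines are not replicates of each other, and no p-value is given.

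ABC transporters bind ATP in a conserved pair of cassette domains and use its hydrolysis to move substrates across membranes. The family holds export pumps for drugs and organic anions at the cell surface, carriers of sterols and phospholipids, and transporters of mitochondria, peroxisomes and lysosomes. The E and F subfamilies have no membrane part and act on ribosomes. Paclitaxel stabilises microtubules, and ABCB1 is the best known of the pumps that export it.

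The deposited FPKM (fragments per kilobase of gene, scaled to the library's aligned fragments) is a level per length, so that levels can be set side by side between genes and libraries. Coverage in the tables corresponded to between 43.5 M and 57.9 M reads of 75 bp per library. A gene was compared where it exceeded 0.5 FPKM in at least 1 library of a pair, and it was called where log2((PTX + 0.1)/(wt + 0.1)) lay beyond 1.5 in either direction. The added 0.1 FPKM understates the change of genes with low levels. A call is a statement of size between 2 libraries and not of significance. Ratios of FPKM are given with 95% intervals from estimated reads, by the exact Clopper-Pearson method, and these cover counting error only.

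The library labelled SW1736-PTX went with 8505C rather than with SW1736 wt in PAX8, FOXE1, KRT19 and NKX2-1, which mark cell identity. The endothelial gene CDH5 and the keratins KRT8 and KRT18 did not divide this way. PAX8, a thyroid transcription factor, was at 38.2 (SW1736 wt), 0.206 (SW1736-PTX), 0.123 (8505C wt) and 0.146 FPKM (8505C-PTX). KRT19, an epithelial keratin, was listed at 0 in both 8505C libraries and stood at 266.1 (SW1736 wt) and 0.535 FPKM (SW1736-PTX). KRT8 and KRT18 were higher in both PTX libraries than in both wt libraries. KRT8 stood at 331.3 (SW1736 wt), 973.5 (SW1736-PTX), 439.5 (8505C wt) and 974.2 FPKM (8505C-PTX), and KRT18 at 256.5, 1436.9, 511.5 and 1239.7 FPKM. EPCAM did not exceed 0.0806 FPKM and CDH1 did not exceed 0.0277 FPKM. Of the mesenchymal markers, VIM and FN1 were highest in SW1736 wt, and CDH2 lay between 35.6 and 38.7 FPKM. NKX2-1, a further thyroid transcription factor, was listed at 0 in SW1736 wt and stood at 36.3, 30.5 and 39.0 FPKM in SW1736-PTX, 8505C wt and 8505C-PTX. Over 14692 genes the log2 levels of SW1736-PTX had a Pearson correlation of 0.767 with SW1736 wt, 0.873 with 8505C wt and 0.933 with 8505C-PTX, given as a description. Over the 27 members above 0.5 FPKM in any library, the same correlations were 0.603, 0.862 and 0.880. Where the PTX cells of SW1736 came from was not tested, and a change with selection cannot be told apart from a difference between the lines in this pair. The calls and group medians of SW1736 are therefore also given for SW1736-PTX over 8505C wt, a comparison that shares 1 library with each of the PTX over wt comparisons. Of the thyroid follicular markers, TSHR and SLC5A5 were listed at 0 in all 4 libraries and TG, the thyroid hormone precursor, did not exceed 0.00586 FPKM. Of the 3 leukocyte markers, PTPRC did not exceed 0.0197 FPKM and CD3E was listed at 0, while CD68, which other cells also express, was at 5.84 (SW1736 wt), 23.6 (SW1736-PTX), 21.7 (8505C wt) and 43.0 FPKM (8505C-PTX). Of the 3 endothelial markers, PECAM1 did not exceed 0.281 FPKM and VWF did not exceed 0.0860 FPKM, while CDH5 was listed at 0 in SW1736 wt and stood at 0.225 (SW1736-PTX), 55.9 (8505C wt) and 4.53 FPKM (8505C-PTX). Of the 3 hepatocyte markers, ALB did not exceed 0.110 FPKM and CYP3A4 did not exceed 0.0127 FPKM. APOA1 reached 0.601 FPKM in 8505C-PTX and did not exceed 0.187 FPKM in the other libraries.

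Of the 44 members, 27 exceeded 0.5 FPKM in at least 1 library and 19 did so in all 4. The levels of members with any signal are shown in the plot of levels by library. The 17 members that stayed at or below 0.5 FPKM were not compared. Promoter sequence was read for the 34 members with an entry in the RefSeq promoter table (GRCh38.p14), as the 250 bases before the listed start. That start lay 4732 bp from the 5′ end of the quantified gene for ABCC9 and 2906 bp for ABCC11. For the other members it lay within 307 bp. CpG dinucleotides, the sites of DNA methylation, are depleted in most of the genome and kept in CpG islands at many promoters. The 5 windows below, 5′ to 3′ on the strand of the gene with each CpG in capitals, were chosen to set a strongly expressed member, the members with large changes and a member listed at 0 side by side. ABCF1 (chr6:30571192-30571441, + strand) was the highest member in 8505C wt. ABCA2 (chr9:137028923-137029172, - strand) and ABCA3 (chr16:2340729-2340978, - strand) were called up in both lines, ABCA1 (chr9:104928156-104928405, - strand) was called down in SW1736, and ABCA9 (chr17:69060928-69061177, - strand) was listed at 0 in every library.
ABCF1: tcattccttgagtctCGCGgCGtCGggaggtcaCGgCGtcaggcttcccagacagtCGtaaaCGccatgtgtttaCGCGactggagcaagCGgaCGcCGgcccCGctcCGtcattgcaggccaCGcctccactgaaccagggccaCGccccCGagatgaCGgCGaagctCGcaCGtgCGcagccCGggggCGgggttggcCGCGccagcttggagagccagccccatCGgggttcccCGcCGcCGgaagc
ABCA2: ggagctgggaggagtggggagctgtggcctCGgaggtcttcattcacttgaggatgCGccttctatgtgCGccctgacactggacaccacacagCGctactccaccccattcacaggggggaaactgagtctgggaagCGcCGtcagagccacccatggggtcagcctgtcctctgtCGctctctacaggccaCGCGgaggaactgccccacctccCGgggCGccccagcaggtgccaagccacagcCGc
ABCA3: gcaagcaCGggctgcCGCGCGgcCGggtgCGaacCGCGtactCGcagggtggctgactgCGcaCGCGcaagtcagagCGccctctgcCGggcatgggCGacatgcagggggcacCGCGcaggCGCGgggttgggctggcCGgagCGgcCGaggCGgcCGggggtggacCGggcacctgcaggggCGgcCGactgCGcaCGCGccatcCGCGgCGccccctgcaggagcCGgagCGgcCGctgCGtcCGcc
ABCA1: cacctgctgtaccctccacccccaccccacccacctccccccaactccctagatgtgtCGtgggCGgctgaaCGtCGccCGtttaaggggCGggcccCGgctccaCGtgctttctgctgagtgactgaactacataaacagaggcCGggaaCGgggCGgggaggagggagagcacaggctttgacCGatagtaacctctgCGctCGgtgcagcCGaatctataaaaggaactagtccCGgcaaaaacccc
ABCA9: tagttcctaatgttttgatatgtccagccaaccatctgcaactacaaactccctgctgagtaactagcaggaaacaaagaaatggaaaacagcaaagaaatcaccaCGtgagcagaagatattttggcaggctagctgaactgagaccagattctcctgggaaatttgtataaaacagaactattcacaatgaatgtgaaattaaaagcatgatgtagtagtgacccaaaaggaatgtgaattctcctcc
The windows held 31 CpG for ABCF1, 12 for ABCA2, 38 for ABCA3, 16 for ABCA1 and 1 for ABCA9. ABCA2, the member with the highest level in 8505C-PTX, thus had a window with few CpG, at an observed to expected ratio of 0.452, and ABCA3 had one rich in CpG at 0.979. A ratio above 0.6 was found in 16 of the 21 windows of members above 0.5 FPKM (76.2%) and in 2 of the 13 windows of the other members (15.4%), against 79.8% and 27.3% of windows for all genes split in the same way. The members' shares were thus read against a background with the same order. ABCC9, with its distant start, was among the 2 low members above 0.6. The 5 members above 0.5 FPKM with a lower ratio were ABCC2 at 0.0770, ABCG2 at 0.201, ABCA2 at 0.452, ABCB9 at 0.534 and ABCB8 at 0.548. The GC box letters GGGCGG, searched on both strands, were in 17 of 34 member windows (50%) and in 42.6% of all 35116 windows, and the CCAAT letters were in 7 (20.6%) against 32%. TATAAA was in 6 member windows (17.6%, against 10.7%), among them those of ABCA1 and ABCA9. The core of the sterol regulatory element, TCACNCCAC, was in none of the members' windows and in 0.883% of all windows. At so low a share, none in 34 windows is uninformative. ABCA8, ABCG1 and ABCC3 were among the members without a window.

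**Figure D1:**
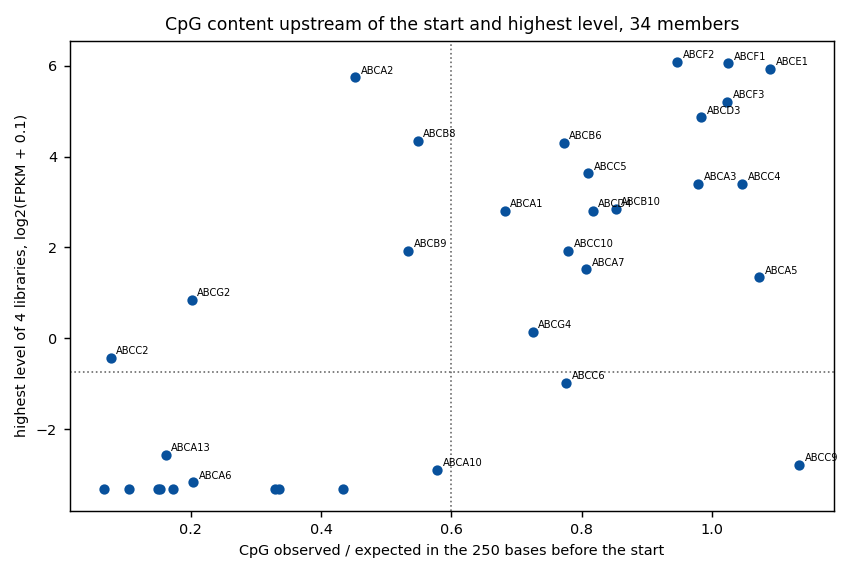
Each point is 1 of the 34 members with a RefSeq promoter window, by the CpG observed to expected ratio in the 250 bases before the start (x axis) and its highest level in the 4 libraries as log2(FPKM + 0.1) (y axis). Dotted lines mark 0.6 and 0.5 FPKM, and members listed at 0 in every library carry no name. ABCA2 and ABCB8 are high with a ratio under 0.6. ABCC9 is low with a ratio of 1.13, at a start 4732 bp from the 5′ end of the quantified gene.

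Across the comparisons, 9 of the 27 members compared in SW1736 were called (33.3%, 7 up and 2 down), where 25.9% of all 14202 genes compared were called, 15.7% up and 10.2% down. In 8505C, 6 of 23 members were called (26.1%, 5 up and 1 down) against 20.9% of 13794 genes, 15% up and 5.89% down. The members' shares in both lines lay near those of all genes. ABCA2, ABCA3, ABCA8 and ABCG1 were called up in both lines, 4 of the 23 members compared in both (17.4%) against 7.37% of 13304 genes, and no member was called down in both, where 2.41% of genes were. All 4 belong to the lipid and sterol carriers. The median log2 fold change over the members was 0.22 in SW1736 and -0.29 in 8505C, beside 0.01 and 0.11 over all genes compared. SW1736-PTX over 8505C wt gave 9 called members of 26 (34.6%), all up, against 20.4% of 13824 genes (15.1% up and 5.23% down), with a median of 0.76 beside 0.10. ABCA2, ABCA3, ABCA8, ABCG1 and ABCG4 among the lipid and sterol carriers and ABCC2, ABCC3 and ABCB8 were among them. Of the members called down in SW1736, ABCA1 was not compared against 8505C wt, and ABCC3 was listed at 0 in 8505C wt, so neither could be called down there.

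**Figure D2:**
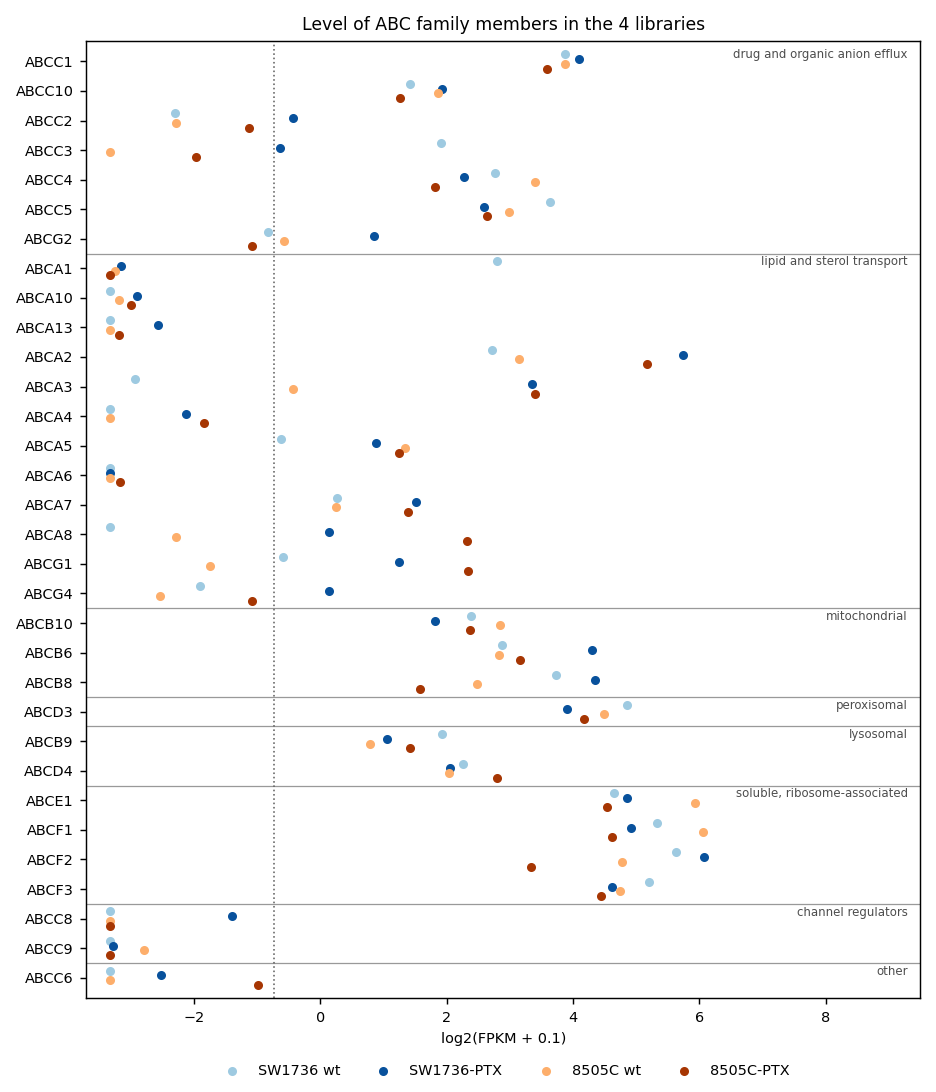
Level of 32 members with signal in any library, as log2(FPKM + 0.1) on the x axis, with 1 point per library and members grouped by role. The dotted line marks 0.5 FPKM, and ABCA2, ABCA3, ABCA8 and ABCG1 have both PTX libraries to the right of both wt libraries.

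The lipid and sterol carriers had the largest median change of the roles in both lines, among members that passed the filter. In SW1736, ABCA3, ABCA8 and ABCG4 exceeded 0.5 FPKM in the PTX library alone, and ABCA1 in the wt library alone. In 8505C, ABCA8 and ABCG1 exceeded it in the PTX library alone. Such members can only show a change toward the library that let them in, so the counts and medians depend in part on the filter. Of the 8 compared in SW1736, 5 were called up and 1 down with a median log2 fold change of 1.94, where 15.7% of all genes were called up and 10.2% down. Of the 6 compared in 8505C, 4 were called up and none down with a median of 2.93, against 15% and 5.89% of all genes. Against 8505C wt, SW1736-PTX had 5 of 7 called up and none down, with a median of 2.59. ABCA2, a transporter of endosomes and lysosomes that affects the handling of sterols and sphingolipids, stood at 6.51 (SW1736 wt), 53.5 (SW1736-PTX), 8.79 (8505C wt) and 36.2 FPKM (8505C-PTX). Both PTX libraries lay well above both wt libraries. The FPKM of ABCA2 was 8.22 times higher in SW1736-PTX than in SW1736 wt (interval 7.89 to 8.56) and 4.12 times higher in 8505C-PTX than in 8505C wt (3.96 to 4.28), with log2 fold changes of 3.02 and 2.03. Against 8505C wt, the ratio of SW1736-PTX was 6.08 (5.86 to 6.32). ABCA2 went from rank 9 among the members in 8505C wt to rank 1 in 8505C-PTX, and it was second to ABCF2 in SW1736-PTX. The gene lies at chr9:137007234-137028922 on the - strand of hg38 and has 49 exons in its main transcript. It overlaps C9orf139 on the other strand over 1459 bp, and that gene did not exceed 0.0416 FPKM.

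ABCA3, which moves phospholipids into the lamellar bodies of lung epithelium, was at 0.0314 (SW1736 wt), 10.1 (SW1736-PTX), 0.645 (8505C wt) and 10.5 FPKM (8505C-PTX). It was nearly silent in SW1736 wt, low in 8505C wt and alike in both PTX libraries, where the ratio of 8505C-PTX to SW1736-PTX was 1.03 (interval 0.988 to 1.08). The log2 fold change of ABCA3 was 6.28 in SW1736, 3.83 in 8505C and 3.78 for SW1736-PTX over 8505C wt. The ratio of 323 in SW1736 (178 to 684) rested on an estimated 10 reads in the wt library, while the ratio of 16.3 in 8505C (14.1 to 19.0) rested on 185. ABCA3 lies at chr16:2275878-2340746 on the - strand.

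ABCA8, a sterol and lipid carrier of the cluster on chromosome 17, was listed at 0 in SW1736 wt and stood at 0.999 FPKM in SW1736-PTX, 0.106 in 8505C wt and 4.88 in 8505C-PTX. It was highest in 8505C-PTX, and both PTX libraries lay above both wt libraries. The ratio of ABCA8 was 46.0 in 8505C (interval 31.4 to 68.9) and 9.40 for SW1736-PTX over 8505C wt (6.33 to 14.2), and no ratio is given against the 0 in SW1736 wt. Its neighbours in the cluster stayed low, with ABCA9 listed at 0 throughout, ABCA6 at no more than 0.0112 FPKM and ABCA10 at no more than 0.0344 FPKM. ABCA5, the remaining gene of the cluster, whose listed span overlaps the end of ABCA10, was at 0.552, 1.74, 2.44 and 2.27 FPKM in SW1736 wt, SW1736-PTX, 8505C wt and 8505C-PTX. Its log2 fold change of 1.4996 in SW1736 lay just under the limit, that in 8505C was -0.10, and SW1736-PTX was lower than 8505C wt.

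ABCG1, which hands cholesterol to high-density lipoprotein, was at 0.568 (SW1736 wt), 2.28 (SW1736-PTX), 0.198 (8505C wt) and 4.96 FPKM (8505C-PTX). The PTX libraries again lay above the wt libraries, with 8505C-PTX the highest. The ratios were 4.01 in SW1736 (interval 3.14 to 5.12), 25.1 in 8505C (16.7 to 38.1) and 11.5 for SW1736-PTX over 8505C wt (7.62 to 17.6). With a pseudocount of 1 FPKM, the log2 fold change in SW1736 fell under the limit for ABCG1 (1.06) and for ABCA8 (0.9991). ABCG4, its close relative known mainly from brain, was at 0.168 (SW1736 wt), 1.00 (SW1736-PTX), 0.0718 (8505C wt) and 0.371 FPKM (8505C-PTX). ABCG4 was called up in SW1736 with a log2 fold change of 2.04 and against 8505C wt with 2.68, lost the first call with a pseudocount of 1 (0.78), and was not compared in 8505C, where it stayed under 0.5 FPKM in both libraries.

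ABCA1, which exports cholesterol and phospholipid to apolipoprotein A-I and starts the formation of high-density lipoprotein, went the other way in SW1736. It was at 6.90 (SW1736 wt), 0.0120 (SW1736-PTX) and 0.00583 FPKM (8505C wt) and was listed at 0 in 8505C-PTX. SW1736 wt was thus the sole library with ABCA1 above trace level, with an estimated 3512 reads against 7 in SW1736-PTX and 3 in 8505C wt. The log2 fold change was -5.96 in SW1736. SW1736-PTX and 8505C wt were both under 0.5 FPKM, so ABCA1 was not compared between them, and no fall could have shown there. ABCA1 followed the pattern of PAX8 and KRT19 over the libraries, and the part of line identity in its result was not tested. ABCA7, a phospholipid transporter related to ABCA1, was at 1.10, 2.77, 1.09 and 2.53 FPKM in SW1736 wt, SW1736-PTX, 8505C wt and 8505C-PTX. Its log2 fold changes of 1.26 and 1.14 stayed under the limit in both lines.

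**Figure D3:**
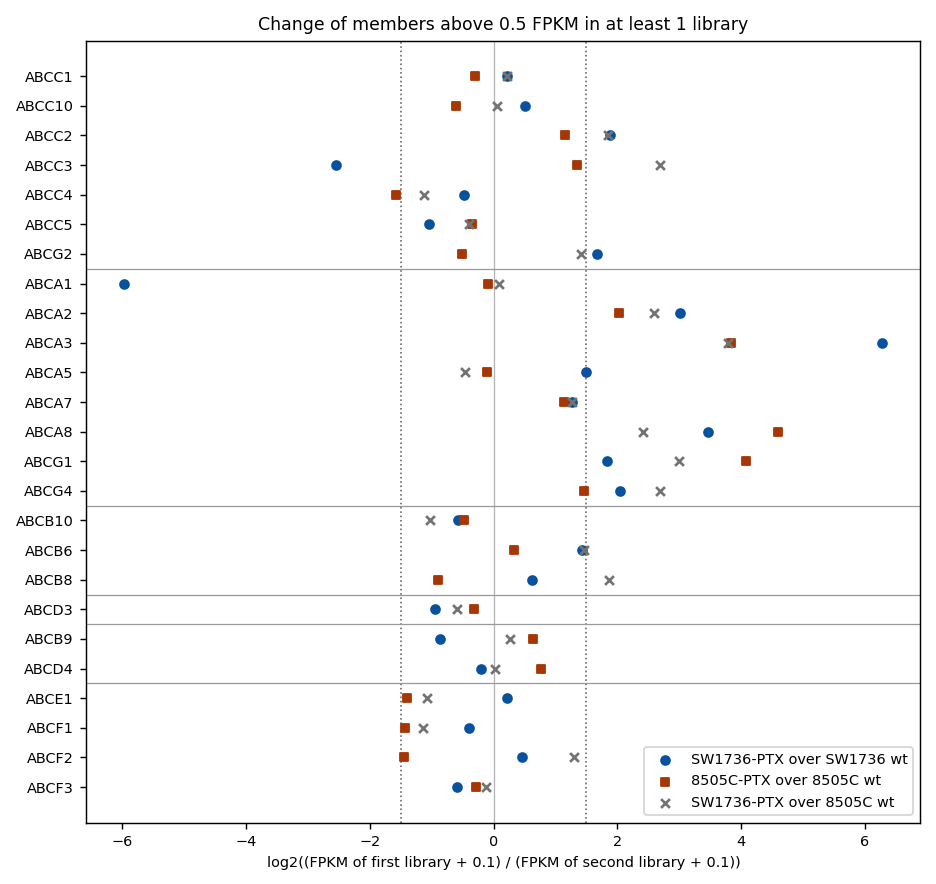
Log2 fold change on the log2(FPKM + 0.1) scale (x axis) of 25 members above 0.5 FPKM in at least 1 library, for each PTX library over its wt library and for SW1736-PTX over 8505C wt. Dotted lines mark 1.5 in either direction, and ABCA1 and ABCC3 are far to the left in SW1736. Points are drawn also where a pair was not compared, as for ABCA1 against 8505C wt, where both libraries were under 0.5 FPKM.

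Among the pumps for drugs and organic anions that passed the filter, calls went both ways in SW1736, and the 1 call in 8505C was downward. Of the 7 compared in SW1736, 2 were called up and 1 down (median 0.22), and of the 5 compared in 8505C, none was called up and 1 down (median -0.50, all 5 below 0). The shares called over all genes were 15.7% up and 10.2% down in SW1736 and 15% up and 5.89% down in 8505C. Against 8505C wt, 2 of 7 were called up and none down, with a median of 0.21. The filter shaped these counts and medians too. In SW1736, the pumps called up, ABCC2 and ABCG2, exceeded 0.5 FPKM in the PTX library alone. Against 8505C wt, ABCC2 and ABCC3 exceeded it in SW1736-PTX alone. In 8505C, ABCG2 exceeded it in the wt library alone, and ABCC2 and ABCC3, both higher in the PTX library, were not compared. ABCC1, which exports glutathione conjugates and several cytotoxic drugs, was the highest of the group in all 4 libraries, at 14.6 (SW1736 wt), 17.0 (SW1736-PTX), 14.6 (8505C wt) and 11.9 FPKM (8505C-PTX). Its 4 values lay close together, and the log2 fold changes of 0.22 and -0.30 were far from the limit. ABCC10, a pump with taxanes among its known substrates, was at 2.57, 3.71, 3.55 and 2.31 FPKM in SW1736 wt, SW1736-PTX, 8505C wt and 8505C-PTX. The log2 fold changes of ABCC10 were 0.52 and -0.60, and neither was called. For SW1736-PTX over 8505C wt, ABCC1, ABCC10 and ABCC5 stood at 0.21, 0.06 and -0.39. ABCC5, which carries cyclic nucleotides, had its highest level in SW1736 wt, at 12.3, 5.94, 7.81 and 6.15 FPKM in that order of libraries, and log2 fold changes of -1.04 and -0.34.

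ABCG2, a pump of many cytotoxic drugs known as breast cancer resistance protein, was at 0.464 (SW1736 wt), 1.70 (SW1736-PTX), 0.573 (8505C wt) and 0.375 FPKM (8505C-PTX). SW1736-PTX stood above the other 3 libraries. The ratio was 3.66 in SW1736 (interval 2.94 to 4.65), which was called up, 0.654 in 8505C (0.482 to 0.875), and 2.96 for SW1736-PTX over 8505C wt (2.39 to 3.71), where the log2 fold change of 1.42 missed the limit. With a pseudocount of 1 FPKM, the SW1736 call of ABCG2 was lost (0.88). ABCC2, which exports conjugated anions into bile, was at 0.102, 0.643, 0.106 and 0.360 FPKM in SW1736 wt, SW1736-PTX, 8505C wt and 8505C-PTX. It was low everywhere but higher in each PTX library than in either wt library. ABCC2 was called up in SW1736 (ratio 6.28, interval 4.26 to 9.62) and against 8505C wt (log2 fold change 1.85), and was not compared in 8505C, and the SW1736 call was lost with a pseudocount of 1 FPKM (0.58).

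ABCC3, a basolateral pump of organic anions and bile salts, was at 3.68 (SW1736 wt), 0.545 (SW1736-PTX) and 0.156 FPKM (8505C-PTX) and was listed at 0 in 8505C wt. SW1736 wt was the highest library, as for ABCA1. The ratio of 0.148 in SW1736 (interval 0.126 to 0.174) was called down, whereas SW1736-PTX over 8505C wt was called up with a log2 fold change of 2.69, so that the direction for ABCC3 turned with the library taken as wt. ABCC4, which exports cyclic nucleotides and prostaglandins, was at 6.71 (SW1736 wt), 4.77 (SW1736-PTX), 10.5 (8505C wt) and 3.44 FPKM (8505C-PTX). It was highest in 8505C wt and lowest in 8505C-PTX. The ratio of ABCC4 was 0.328 in 8505C (0.305 to 0.352), the only call downward in that line, which was lost with a pseudocount of 1 FPKM (-1.37), and its log2 fold change was -0.48 in SW1736 and -1.12 for SW1736-PTX over 8505C wt.

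The soluble members that work on ribosomes made up the largest share of the members' summed FPKM, with 52.4%, 44.8%, 62.3% and 35.0% in SW1736 wt, SW1736-PTX, 8505C wt and 8505C-PTX. None was called, yet in 8505C all 4 had a log2 fold change below 0 and the median was -1.41, beside -0.10 in SW1736 and -0.59 for SW1736-PTX over 8505C wt. ABCE1, which splits ribosomes for recycling, was at 24.9 (SW1736 wt), 28.9 (SW1736-PTX), 60.8 (8505C wt) and 23.1 FPKM (8505C-PTX). One library, 8505C wt, stood apart from the other 3. ABCF1, which acts in translation initiation, stood at 40.1, 30.3, 66.5 and 24.5 FPKM, again with 8505C wt the highest. ABCF2 was at 49.3, 67.6, 27.3 and 9.99 FPKM and ABCF3 at 36.8, 24.5, 26.6 and 21.7 FPKM.
The log2 fold changes in 8505C were -1.39 for ABCE1, -1.44 for ABCF1, -1.44 for ABCF2 and -0.29 for ABCF3, and for the first 3 they lay just inside the limit. In SW1736 they were 0.21, -0.40, 0.45 and -0.59. ABCE1 overlaps ANAPC10 on the other strand over 538 bp, a gene at 2.61, 8.65, 9.82 and 8.13 FPKM, and the sources used here do not state whether strand was used in counting, so that reads in that stretch cannot be told apart. The summed FPKM of the 4 soluble members was 151.1 (SW1736 wt), 151.3 (SW1736-PTX), 181.2 (8505C wt) and 79.3 FPKM (8505C-PTX), a ratio of 1.00 in SW1736 and 0.438 in 8505C.

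No mitochondrial member was called in either line. ABCB6, a porphyrin transporter, was at 7.26 (SW1736 wt), 19.7 (SW1736-PTX), 7.04 (8505C wt) and 8.89 FPKM (8505C-PTX), and its log2 fold change was 1.42 in SW1736 and 1.47 for SW1736-PTX over 8505C wt. ABCB8, a transporter of the inner mitochondrial membrane, was at 13.2 (SW1736 wt), 20.3 (SW1736-PTX), 5.49 (8505C wt) and 2.90 FPKM (8505C-PTX), with both SW1736 libraries above both 8505C libraries. ABCB8 was called up for SW1736-PTX over 8505C wt at a log2 fold change of 1.87. ABCB10, which takes part in haem synthesis, ranged from 3.42 to 7.08 FPKM.

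ABCD3, a carrier of bile acid precursors and fatty acids into peroxisomes, was at 29.0 (SW1736 wt), 15.0 (SW1736-PTX), 22.5 (8505C wt) and 18.0 FPKM (8505C-PTX), with log2 fold changes of -0.95 in SW1736, -0.31 in 8505C and -0.58 for SW1736-PTX over 8505C wt. The lysosomal members ABCB9, a peptide transporter, and ABCD4, which serves the release of cobalamin, lay between 1.63 and 6.89 FPKM and were not called. ABCB9 had a log2 fold change of -0.87 in SW1736, 0.64 in 8505C and 0.26 for SW1736-PTX over 8505C wt.

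The 17 members at or below 0.5 FPKM in every library include most of the tissue-restricted transporters. Listed at 0 in all 4 libraries were ABCA9, ABCA12 (skin lipids), ABCB5, ABCB11 (the bile salt export pump of liver), ABCC11, ABCC12, ABCC13, ABCD2, ABCG5 and ABCG8, of which the last pair exports sterols in intestine and liver. For these genes 3 reads, which a count of 0 allows, correspond to between 0.00557 and 0.0250 FPKM. The files hold no read counts, so a listed 0 is not read as absence. The other 7 were seen at low levels, with a highest value of 0.405 FPKM for ABCC6, 0.282 for ABCC8, 0.180 for ABCA4, 0.0686 for ABCA13, 0.0446 for ABCC9, 0.0344 for ABCA10 and 0.0112 for ABCA6. ABCA4, the retinal carrier, and ABCC6 were listed at 0 in both wt libraries and had signal in both PTX libraries. ABCC6 has near-identical pseudogene copies whose reads the counting may have split, and its values are uncertain. The library with signal for ABCC8, the regulatory subunit of the potassium channel of pancreatic beta cells, was SW1736-PTX alone.

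By role, the balance of the family shifted toward lipid carriers in both PTX libraries. The summed FPKM of the lipid and sterol carriers was 15.8 (SW1736 wt), 72.6 (SW1736-PTX), 13.4 (8505C wt) and 61.9 FPKM (8505C-PTX), which was 5.48%, 21.5%, 4.59% and 27.3% of all members. The ratio of PTX to wt was 4.59 in SW1736 and 4.63 in 8505C, and without ABCA2 the SW1736 ratio was 2.06. ABCA2 alone held 53.5 FPKM of this sum in SW1736-PTX and 36.2 FPKM in 8505C-PTX. The share in 8505C-PTX also rose because the soluble members' sum was 79.3 FPKM there, against 181.2 FPKM in 8505C wt. The summed FPKM of the drug and anion pumps was 40.4, 34.3, 37.2 and 24.7 FPKM, a ratio of 0.848 in SW1736 and 0.664 in 8505C. All members together came to 288.7, 338.0, 290.7 and 226.7 FPKM. For scale, ABCB1, which the rule leaves out, was at 302.3 (SW1736-PTX), 0.363 (8505C wt) and 497.1 FPKM (8505C-PTX) and listed at 0 in SW1736 wt, and in the PTX libraries it came to 0.894 and 2.19 times the sum of all 44 members. ABCB4, the phospholipid transporter beside it, was listed at 0 in both wt libraries and stood at 0.434 and 4.38 FPKM in SW1736-PTX and 8505C-PTX.

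**Figure D4:**
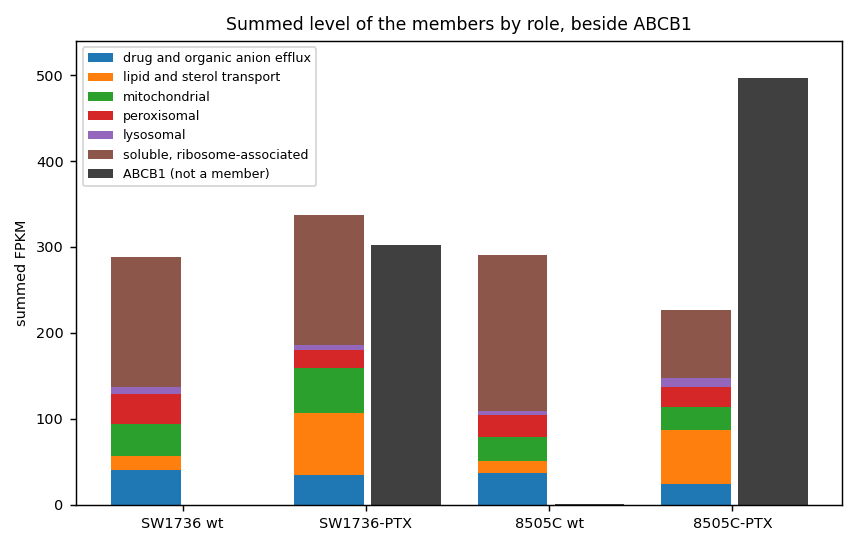
Summed FPKM of the members by role (stacked bars, y axis from 0) beside the FPKM of ABCB1 (dark bars) in each of the 4 libraries, 1 library per bar. The lipid and sterol part is 15.8 and 13.4 FPKM in the wt libraries against 72.6 and 61.9 FPKM in SW1736-PTX and 8505C-PTX, and the channel regulators and other members are too low to draw.

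The wt libraries of the 2 lines differed in 5 of 24 members (20.8%, against 17.6% of 13457 genes, 7.73% higher and 9.92% lower in 8505C wt). ABCA3 and ABCA5 were higher in 8505C wt, and ABCA1 and ABCC3 were among those higher in SW1736 wt. Between the PTX libraries 4 of 26 members differed (15.4%, against 7.79% of 13986 genes, 3.7% higher and 4.09% lower in 8505C-PTX), namely ABCA8, higher in 8505C-PTX, and ABCB8, ABCF2 and ABCG2, higher in SW1736-PTX. ABCA3, ABCA5 and ABCC3 were thus not called between the PTX libraries, and ABCA1 was not compared there. ABCB8 and ABCF2 lie 160 kb apart on chromosome 7. The ratio of 8505C-PTX to SW1736-PTX was 0.143 for ABCB8 (interval 0.132 to 0.154) and 0.148 for ABCF2 (0.142 to 0.154).

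The genes within 500 kb of the called members were examined to see whether whole stretches moved with them. Around ABCA2, 46 genes compared in SW1736 had a median log2 fold change of 0.41 and 43 in 8505C a median of -0.09, and 4 of them lay above ABCA2 in each line. Around ABCA3 the medians were -0.25 over 47 genes and -0.03 over 45, with 1 gene above ABCA3 in SW1736 (ZG16B, 6.94) and none in 8505C. ABCA2 and ABCA3 thus stood above nearly all of their neighbours. Around ABCA8 the medians were 1.43 over 5 genes and 1.13 over 6, and around ABCG1 they were 0.67 and 1.48 over 7 genes, so that the neighbours of these members were also raised at the median. TMPRSS3, near ABCG1, reached a log2 fold change of 5.03 (SW1736) and 5.45 (8505C). Of 20 genes around ABCC3, 19 lay above it in SW1736, and both genes compared around ABCA1 lay near 0, with a median of 0.13. For SW1736-PTX over 8505C wt, the medians around ABCA2, ABCA3, ABCA8 and ABCG1 were 0.63, -0.07, 1.12 and 0.38, with 6, 0, 3 and 3 genes above the member. All 12 genes around ABCF2 were at 0.20 or higher in SW1736 with a median of 1.02, and all 13 lay above ABCF2 in 8505C. Against 8505C wt, the median of the 12 genes around ABCF2 was 1.95, and 11 of them were called up.

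**Figure D5:**
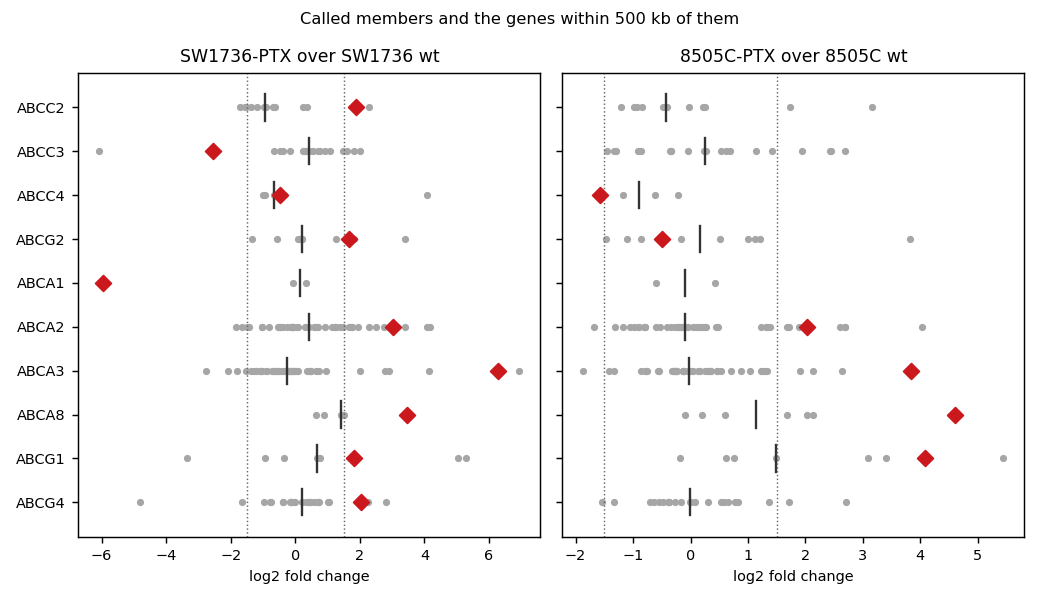
Log2 fold change on the log2(FPKM + 0.1) scale (x axis) of 10 members called in at least 1 line (red diamonds, drawn where compared) and of the other genes within 500 kb (grey points, with their median as a bar), for SW1736 on the left and 8505C on the right. ABCA1 and ABCC3 lie far below their neighbours' medians in SW1736, and ABCA3 far above in both lines.

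Partners of the members were read from lists written out gene by gene. Of 13 regulators and acceptors of sterol efflux, 4 of 11 compared were called up and none down in SW1736 (median 1.41), and 4 of 13 were called up and none down in 8505C (median 1.09). Over all genes, 15.7% were called up in SW1736 and 15% in 8505C, which is the background for each list here, and against 8505C wt 3 of 12 were called up (median 0.84, background 15.1%). MYLIP, the ligase that degrades the low-density lipoprotein receptor and is a target of liver X receptors, was the one gene called in both lines, at 3.58 (SW1736 wt), 11.5 (SW1736-PTX), 2.20 (8505C wt) and 13.1 FPKM (8505C-PTX). Both PTX libraries of MYLIP lay above both wt libraries, with log2 fold changes of 1.66 in SW1736, 2.52 in 8505C and 2.34 for SW1736-PTX over 8505C wt. The other genes of the list that were called up differed between the lines, and a shared response of the list was not tested. Of 9 regulators of drug efflux genes, none of 4 compared was called in SW1736 and 1 of 5 in 8505C, and NR1I2, the pregnane X receptor, did not exceed 0.371 FPKM. Against 8505C wt, 1 of 4 regulators was called up.

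Of 16 glutathione genes, which make the conjugates that several C-subfamily pumps export, 2 of 12 were called up and 1 down in SW1736 and 1 of 11 up in 8505C. GGT1, which breaks down glutathione outside the cell, was called up in both, at 0.0432, 0.509, 0.0377 and 0.753 FPKM in SW1736 wt, SW1736-PTX, 8505C wt and 8505C-PTX. Against 8505C wt, 2 of 11 glutathione genes were called up and none down. GGT1 was among them at 2.15, and no other SW1736 call in this list was kept. Of 16 peroxin genes, 15 were compared, with 1 up and 1 down in SW1736 and 1 up in 8505C. Against 8505C wt, 1 of 15 was up and 1 down. None of 14 haem and iron-sulphur genes and none of 6 partners of ABCE1 in ribosome recycling was called in either line or against 8505C wt. The median of the recycling genes was nonetheless -0.84 in 8505C and -0.60 for SW1736-PTX over 8505C wt. KCNJ11, the pore partner of ABCC8, was at 0.00799, 1.28, 0.115 and 0.366 FPKM, highest in the library that also had the most ABCC8, and was called up in SW1736 at 3.67 and against 8505C wt at 2.68, while KCNJ8 did not exceed 0.0385 FPKM.
The peptide transporters TAP1 and TAP2, ABC proteins whose names fall outside the rule, parted. TAP1 was at 13.7, 47.2, 16.2 and 23.6 FPKM and was called up in SW1736 at 1.78 and against 8505C wt at 1.54, TAP2 was at 18.3, 13.0, 30.6 and 7.65 FPKM and was called down in 8505C at -1.98, and TAPBP, their partner, was not called. Of the adaptors that hold pumps at the membrane, SLC9A3R1 and EZR were compared and not called in either line, though EZR was called down at -1.55 for SW1736-PTX over 8505C wt, and PDZK1 did not exceed 0.234 FPKM.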

How the data were processed

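The mRNA of SW1736 wt, SW1736-PTX, 8505C wt and 8505C-PTX cells was sequenced on a NextSeq 500 as single-end reads of 75 bp, with 1 library per condition. Per the study's methods and the submitters' processing notes, the authors converted base calls with bcl2fastq (version 2.20), masked adapters with Cutadapt, trimmed with ERNE, aligned to hg38 with STAR and quantified genes with StringTie, and the annotation and the other versions are not given in the sources used here. For each gene, the coverage deposited by the authors is the mean read depth per base, with no scaling for library depth. StringTie's FPKM, as deposited, scales this depth per base by the library's aligned total, and TPM, as deposited by the authors, rescales it so that all libraries have one sum. The files hold no read counts, so that no count model was used.

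Rows that share a gene name were summed, among them the 7 rows of ABCF1. Differences were computed as log2((PTX + 0.1)/(wt + 0.1)) on FPKM where either library of a pair exceeded 0.5 FPKM, and were called beyond 1.5. The limits of 0.5 and 1.5 are those of the study's methods, while the added 0.1 and the rule of at least 1 library were chosen here. The computation was tested on simulated data. Reads were estimated from coverage, FPKM and the length of the main transcript (GENCODE release 44, hg38), and intervals are exact binomial (Clopper-Pearson) at 95%. Levels in all libraries are given for members called in at least 1 line, members above 10 FPKM in at least 1 library, and ABCA1, ABCC1, ABCC2, ABCC3, ABCC4, ABCC5, ABCC10 and ABCG2, and of the pathway lists for genes called in both lines and lists of up to 4 genes. ABCA5, ABCA7, ABCB9, ABCB10 and ABCD4 were named besides, after their values were seen. Results of some single genes are not reported here, while counts, medians and sums cover all members. The members, the lists and the comparison with 8505C wt were chosen with earlier results of these data known. Python 3.11.15, NumPy 2.4.6, pandas 2.3.3, SciPy 1.17.1 and matplotlib 3.10.9 were used.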

Additional observations from a re-analysis of the deposited data

Results flagged for a closer look

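Of the 23 members compared in both lines, 5 moved in opposite directions by more than 0.4 on the log2 scale in each, and with 1 library per condition none of these differences was tested. The limit of 0.4 was chosen here, and 11 of the 23 had opposite signs of any size. No share over all genes is given beside these counts, so they are not read as a trait of the family. ABCG2 had a log2 fold change of 1.67 in SW1736 and -0.50 in 8505C, a difference of 2.18. ABCF2 stood at 0.45 and -1.44, a difference of 1.90. ABCB8 stood at 0.62 and -0.90, a difference of 1.52. For ABCC10 the values were 0.52 and -0.60, a difference of 1.115. ABCB9 went the other way, at -0.87 in SW1736 and 0.64 in 8505C, a difference of -1.51.

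Outside the rule, the pseudogene ABCC6P2 had a log2 fold change of 3.05 in 8505C, where it was listed at 0 in 8505C wt and stood at 0.727 FPKM in 8505C-PTX. It was also listed at 0 in SW1736 wt and was at 0.133 FPKM in SW1736-PTX. ABCC6, the gene it was copied from, had the same order of libraries.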

How the results depend on the processing

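No paired analysis was possible because the comparisons come from no test, with 1 library per condition and no replicate numbers in the labels, and no replicate could be left out. Taking the lines as 2 pairs would leave 1 degree of freedom, and that fit was not run. Over 11 alternatives of pseudocount, filter, unit, centring, row choice and limit, none of the 14 calls of the members reported here changed sign, and 8 were kept under every alternative that compared them. With a pseudocount of 1, the members called fell from 9 to 4 in SW1736, from 4 to 2 in both lines together and from 5 to 2 between the wt libraries, with ABCA8, ABCC2, ABCG1, ABCG2 and ABCG4 losing the SW1736 call and ABCC4 the 8505C call. With more than 0.5 FPKM needed in both libraries, these numbers were 3, 1 and 2, and the median of the members in SW1736 went from 0.22 to -0.0060. With no filter on low values, the median was 0.45 in SW1736 and 0.14 in 8505C (-0.29 as reported). A log2 limit of 1 gave 10 members called in 8505C in place of 6, 9 in place of 5 between the wt libraries and 8 in place of 4 between the PTX libraries, and a limit of 2 gave 3 between the wt libraries. With TPM, 7 members differed between the PTX libraries, the 8505C median was -0.037, and the soluble sum ratio in SW1736 was 0.968 in place of 1.00. Centring on the median of all genes (0.11 in 8505C) moved the 8505C median to -0.40 and turned its 5 up and 1 down calls into 4 up and 3 down, with ABCF1 and ABCF2 called down at -1.54 and -1.55. With 8505C wt in place of SW1736 wt, the members' median was 0.76, the soluble sum ratio 0.835 and ABCC3 turned from -2.55 to 2.69. Without ABCA2, the lipid and sterol sum ratio in SW1736 was 2.06 in place of 4.59. The alternatives for the role sums, neighbours and partner lists were chosen after seeing the data.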

Other observations

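Among ABC rows that the rule does not take in, the transcribed pseudogene ABCA11P was at 2.56, 3.44, 3.32 and 2.89 FPKM in SW1736 wt, SW1736-PTX, 8505C wt and 8505C-PTX, a level above those of ABCA8 and ABCG4 in SW1736-PTX. ABCA17P did not exceed 0.040 FPKM and ABCC6P1 did not exceed 0.018 FPKM. The antisense genes ABCA9-AS1 and ABCC5-AS1 were listed at 0 in all 4 libraries.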
